A study of Mus musculus with 4 samples.

Results

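The 10 genes described here encode the enzymes that make miRNAs and the proteins that act on the let-7 miRNA pathway: Drosha, Dgcr8, Xpo5, Dicer1, Tarbp2, Prkra, Lin28b, Dis3l2, Trim71 and Igf2bp1. They were taken from a list of names, and every AGO2 region whose midpoint lay in one of them on the same strand (mm10, GENCODE) was kept. That gave 68 of 86106 clusters called in the knockout-labelled AGO2 immunoprecipitate (IP), 61 of 46860 called in the wild-type IP, and 61 of the 46862 regions in the authors' table that compares both IPs. Of the 10 genes, Tarbp2 alone had no region in any of the files. AGO2 is an Argonaute protein, which holds a miRNA and is guided by it to RNAs that pair with its seed. In eCLIP it is crosslinked to RNA, immunoprecipitated and its bound RNA fragments sequenced beside an input of similar fragment size.

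The samples were whole brains of C57BL/6 mice at postnatal day 0, with the genotype label FMR1 ko for one pair of libraries and wild type for the other. Fmr1 encodes FMRP, the RNA-binding protein lost in fragile X syndrome. Both pairs were frozen brain immunoprecipitated with the same anti-AGO2 antibody, and each genotype had 1 IP and 1 input. The labels give neither the Fmr1 allele nor the number of animals in a library.

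The Fmr1 gene itself had 5 clusters in the knockout-labelled IP (log2 over input between -1.52 and 1.81) and 2 in the wild-type IP (1.18 and 4.66). None was enriched, and with the allele unknown these clusters check neither genotype nor label. The scores fix the relative depths. Input to IP, the depth ratio was 1.92 in the knockout-labelled pair and 6.34 in the wild-type pair, and between the IPs, knockout-labelled to wild-type, it was 2.28. Clusters had a median of 4 IP reads in both. All 7 neuron, 5 neural progenitor and 4 astrocyte markers had clusters in both IPs. Of 5 oligodendrocyte lineage markers, 5 had one in the knockout-labelled IP and 4 in the wild-type IP. Of 4 microglia markers 2 had one in each IP, and of 5 erythroid markers 3 had one in the knockout-labelled IP and 2 in the wild-type IP. Of 6 markers of other organs none had one in the knockout-labelled IP and 1 had one in the wild-type IP. With 1 library per genotype, every comparison is between libraries, with no replicate check, and no test of genotype was possible. Intervals are exact (Clopper-Pearson) 95% binomial intervals and cover counting error only.

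A miRNA begins as a hairpin in a longer transcript. In the nucleus DROSHA and its RNA-binding partner DGCR8 cut the hairpin out, and exportin-5, the product of Xpo5, carries it to the cytoplasm. There DICER1, helped by the RNA-binding proteins encoded by Tarbp2 and Prkra, cuts it to the short duplex that is loaded into Argonaute. LIN28 proteins bind let-7 precursors and block their maturation, in part by having them marked with uridines, and DIS3L2 degrades the marked precursors. TRIM71 and IGF2BP1 belong to the same developmental programme: both genes are known let-7 targets, as is Lin28b, and let-7 levels rise as the brain matures. Clusters on these mRNAs can therefore mark miRNA binding to the genes that make and control miRNAs.

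The miRNAs of the main sites are shown first, with the seed (bases 2 to 8) in capitals, credited to RefSeq (GRCm38.p6). The seeds are what the sites below were searched for.
let-7a-5p: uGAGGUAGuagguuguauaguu
miR-125b-5p: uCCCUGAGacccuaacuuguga
miR-128-3p: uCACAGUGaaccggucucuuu
miR-30a-5p: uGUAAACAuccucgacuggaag

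The 3 let-7 sites on Dicer1 and the 2 on Lin28b that lay within 20 bases of an AGO2 cluster are shown because they join the miRNA to the genes that make or block it. Each is read from the RefSeq genome (GRCm38.p6, the mm10 assembly) on the transcript strand, with the bases that pair with the seed in capitals, and in sites of 8 bases also the A after them.
Dicer1 codon 1204, chr12:104702793-104702822, minus strand: tgtacaaccaaCTACCTCAtatcccattca
Dicer1 codon 1240, chr12:104702685-104702714, minus strand: cgctaacacatCTACCTCAgatggaagccc
Dicer1 codon 1697, chr12:104694685-104694714, minus strand: gcgattttggaCTACCTCAtaaccaagcac
Lin28b 3′ UTR, 2582 bases past the stop codon, chr10:45378465-45378494, minus strand: acagcacatggCTACCTCccagctaccaca
Lin28b 3′ UTR, 36 bases past the stop codon, chr10:45381011-45381040, minus strand: gggcgggaagtCTACCTCAtgcaagcacag

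Among these genes, both IPs had their highest-scoring clusters on the mRNAs of Dicer1 and Lin28b. A cluster was called an enriched peak where the authors' -log10 p and the authors' log2 of IP over input were both 3 or more. In the knockout-labelled IP 6 of 68 clusters passed (8.82%, interval 3.31 to 18.2), against 3.08% of all its clusters, and they lay on Lin28b (4) and Dicer1 (2). In the wild-type IP 15 of 61 passed (24.6%, interval 14.5 to 37.3), against 24.1% of all its clusters, on Dicer1 (9), Lin28b (5) and Dgcr8 (1). The background share in the wild-type IP lies within the interval of the members' share, and the background of the knockout-labelled IP just below its lower bound. That margin is not read as an excess, because the 6 include 1 Lin28b peak listed as abutting regions, which the interval treats as independent. With abutting regions merged, 5 enriched peaks were left in the knockout-labelled IP. Against 1 input read, 9 IP reads were needed to pass in the knockout-labelled pair and 5 in the wild-type pair, so counts of enriched peaks are not comparable between the libraries. No listed input count was below 1, so 1 input read may stand for 0 reads. Input counts may each include an added read, as described below for the comparison of the IPs, which was not tested for input. Values against few input reads may then understate the ratio, and the intervals take the counts as listed. In whole brain, fewer cells of a type and less RNA per cell cannot be told apart.

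**Figure D1:**
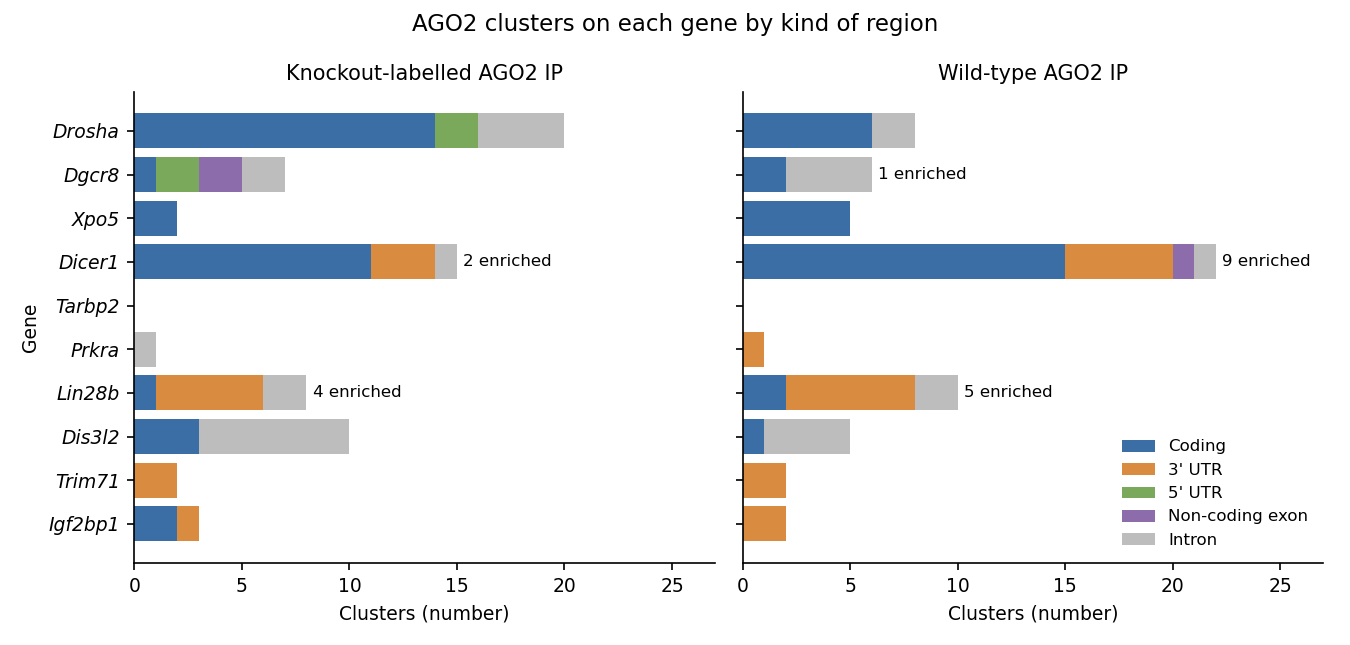
Number of AGO2 clusters on each gene (horizontal axis) in the knockout-labelled IP (left) and the wild-type IP (right), coloured by kind of region, with the number of enriched peaks beside the bar. In the knockout-labelled IP Drosha had 20 clusters with none enriched, Dicer1 15 with 2 and Lin28b 8 with 4, and in the wild-type IP Drosha had 8 with none, Dicer1 22 with 9 and Lin28b 10 with 5.

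Among clusters on these genes, enrichment was most frequent in 3′ UTRs, and over all clusters it was also more frequent there than in coding sequence. In the knockout-labelled IP 4 of 11 clusters in 3′ UTRs were enriched (36.4%, interval 10.9 to 69.2), against 8.99% of all 3′ UTR clusters, and 1 of 34 coding clusters was, against 1.66% of all coding clusters. In the wild-type IP 7 of 16 clusters in 3′ UTRs were enriched (43.8%, interval 19.8 to 70.1), against 37.1% of all, and 7 of 31 coding clusters were (22.6%, interval 9.59 to 41.1), against 21.2% of all. Some peaks were deposited as abutting regions with equal IP reads. Counted once each, they leave 5 enriched sites in the knockout-labelled IP and 13 in the wild-type IP. The 4 enriched 3′ UTR clusters of the knockout-labelled IP include both abutting regions of 1 Lin28b peak, which the interval treats as independent.

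Drosha, the nuclease of the first cut, is on chr15:12824815-12935291 on the plus strand. It had 20 clusters in the knockout-labelled IP (14 coding, 2 in the 5′ UTR, 4 in introns) and 8 in the wild-type IP (6 coding, 2 in introns), and none was enriched in either. Of the 20 knockout-labelled clusters 6 lay below their input, and their median log2 over input was 0.54, against 2.26 over all clusters of that IP. The 2 coding clusters with at least 10 IP reads, at 12834408 to 12834491 and at 12859357 to 12859459, held 11 IP against 20 input reads (log2 0.08, interval -1.13 to 1.21) and 10 against 13 (0.56, interval -0.79 to 1.86). Drosha had the most clusters of the 10 genes in that IP, and its best-covered ones stood at the density of the input. No wild-type Drosha cluster held more than 4 reads. None of the 20 knockout-labelled clusters overlapped a wild-type one, where 13.4% of all knockout-labelled clusters did, and none of the 8 wild-type clusters overlapped a knockout-labelled one, where 25.9% of all wild-type clusters did. The nearest were 53 bases apart.

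**Figure D2:**
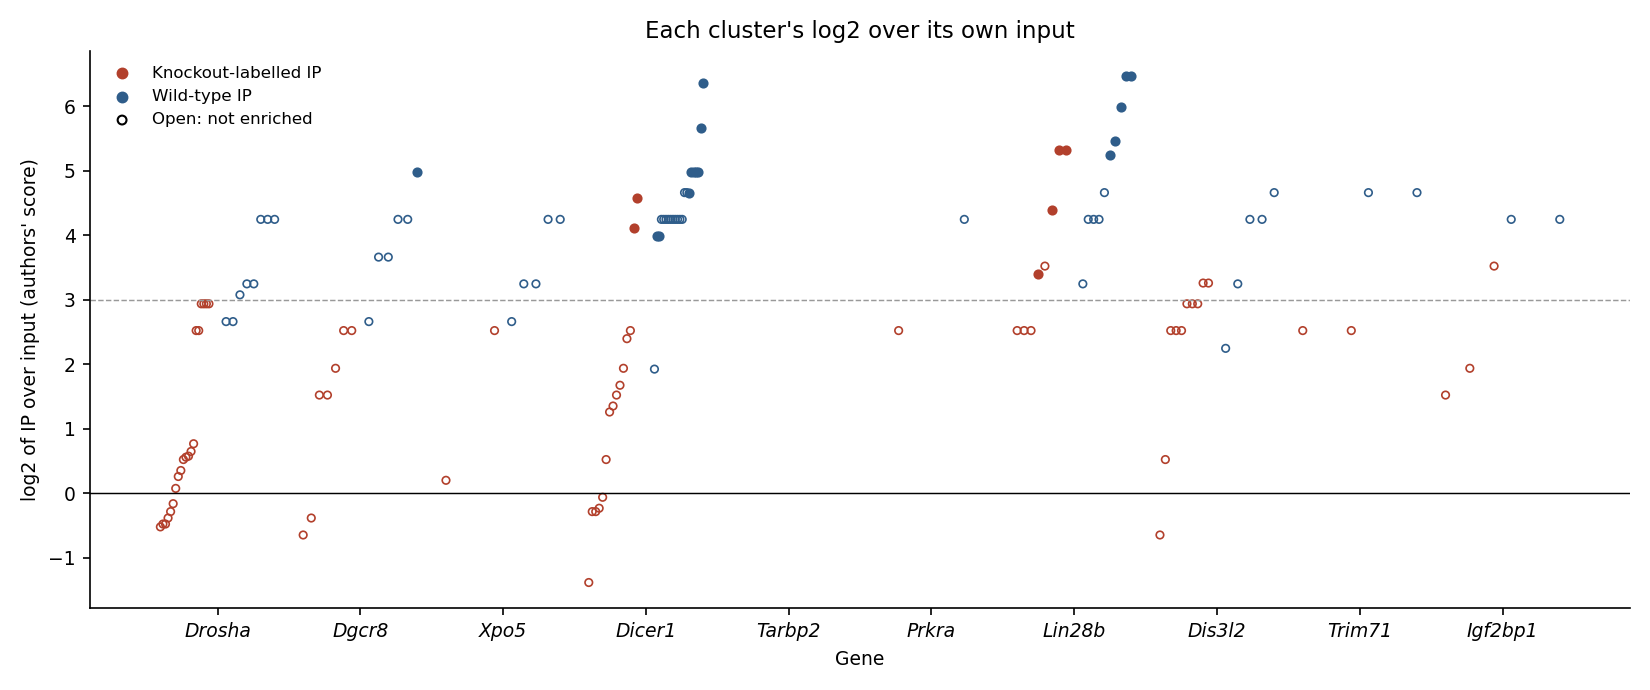
Authors' log2 of IP over input (vertical axis) of every cluster, by gene, with the knockout-labelled IP (red) left of the wild-type IP (blue). Filled points are enriched peaks and open points are not, the dashed line marks a log2 of 3, and clusters of equal value are spread sideways. Drosha's knockout-labelled clusters centre near 0.54, and rows of equal wild-type points at 4.25 are clusters of 3 IP reads against 1 input read.

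Drosha's sites were few. Of the 8 miRNA families searched, miR-128 had a site of 7 bases at 3 knockout-labelled clusters, of which the coding one at 12928855 to 12928956 had the highest score on the gene (8 IP against 2 input reads, log2 2.94, interval 0.61 to 6.21, -log10 p 2.38). A miR-30 site of 7 bases lay at the pair of abutting wild-type clusters from 12907325 to 12907358, with at most 4 IP reads.

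Dgcr8, which encodes DROSHA's partner, is on chr16:18253948-18289246 on the minus strand and had 7 clusters in the knockout-labelled IP and 6 in the wild-type IP. Its mRNA holds 2 annotated miRNA hairpins near the start codon, and DROSHA and DGCR8 are known to cut this mRNA at such hairpins. For that reason AGO2 reads here could come from the mature miRNA as well as from the mRNA. The wild-type coding clusters at 18284289 to 18284292 and 18284293 to 18284308 lay within the mature miR-1306-5p (chr16:18284288-18284310) and held 4 IP against 2 input reads each (log2 3.66, interval 0.86 to 7.13, -log10 p 2.39). Both missed the limit on -log10 p. The knockout-labelled 5′ UTR clusters at 18284501 to 18284514 and 18284515 to 18284561 held 3 IP against 2 input reads each (log2 1.52) and abutted the mature miR-3618-3p (chr16:18284562-18284583). The 2 mature miRNAs are given to show that their seeds differ from the let-7 seed.
miR-1306-5p: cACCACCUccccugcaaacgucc
miR-3618-3p: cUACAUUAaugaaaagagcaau

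The single enriched peak on Dgcr8 was in an intron. The wild-type region at 18286960 to 18287030 had 5 IP reads against 1 input read (log2 4.99, interval 1.83 to 10.55, -log10 p 3.60), and the nearest knockout-labelled cluster lay 665 bases away. A let-7 site of 8 bases lay at the abutting wild-type intron clusters from 18286593 to 18286614, each with 3 IP reads against 1 input read, and neither was enriched. Also in intron sequence, the knockout-labelled cluster at 18285978 to 18286030, below its input (log2 -0.65), overlapped the wild-type cluster at 18285932 to 18285988 (6 IP against 6 input reads, log2 2.66). A Drosha coding cluster of the knockout-labelled IP at 12842074 to 12842143 likewise overlapped an annotated miRNA gene, Gm47288, and lay below its input (log2 -0.38).

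Xpo5, which encodes the export receptor, is on chr17:46202782-46243598 on the plus strand. It had 2 coding clusters in the knockout-labelled IP and 5 in the wild-type IP, and none was enriched. The cluster with the highest score was the wild-type one at 46219466 to 46219501, with 6 IP against 6 input reads (log2 2.66, interval 0.76 to 4.57, -log10 p 2.55). In the authors' deposited table this region listed 1 knockout-labelled and 6 wild-type reads (log2 of wild type over knockout-labelled 3.77, interval 0.73 to 9.30, -log10 p 2.38). The knockout-labelled count is the lowest listed for these genes and may stand for no read. A let-7 site of 7 bases in codon 921 lay at the abutting wild-type clusters from 46236984 to 46237010, each with 3 IP reads against 1 input read.

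Dicer1 is on chr12:104687742-104751952 on the minus strand, with a coding sequence of 5721 bases and a 3′ UTR of 3851 bases. It had 15 clusters in the knockout-labelled IP (11 coding, 3 in the 3′ UTR, 1 in an intron) and 22 in the wild-type IP (15 coding, 5 in the 3′ UTR, 1 in a non-coding exon, 1 in an intron). The highest peak of the gene was in the coding sequence and was called in both libraries at almost the same bases. The knockout-labelled peak spanned 104702787 to 104702855 and held 25 IP against 2 input reads (log2 4.58, interval 2.58 to 7.71, -log10 p 9.43). The wild-type peak spanned 104702787 to 104702853 and held 16 against 2 (log2 5.66, interval 3.58 to 8.83, -log10 p 11.8). The let-7 site of codon 1204, printed above, lay inside both. It pairs with all 7 seed bases and has the A after them.

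The other 2 let-7 sites of 8 bases in the Dicer1 coding sequence carried few reads. The site of codon 1697 lay in the knockout-labelled cluster at 104694681 to 104694723, with 6 IP against 4 input reads (log2 1.52, interval -0.55 to 3.79). The site of codon 1240 lay at the edge of the knockout-labelled cluster at 104702703 to 104702708, with 3 against 4 (log2 0.52). Neither had a wild-type cluster within 20 bases. Sites with the same 8 bases in 1 mRNA therefore held 25, 6 and 3 knockout-labelled reads. The Dicer1 coding sequence holds 5 let-7 sites in all, and the other 2, each of 7 bases, had no cluster within 20 bases in either IP. The 3′ UTR of Dicer1 holds none.

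**Figure D3:**
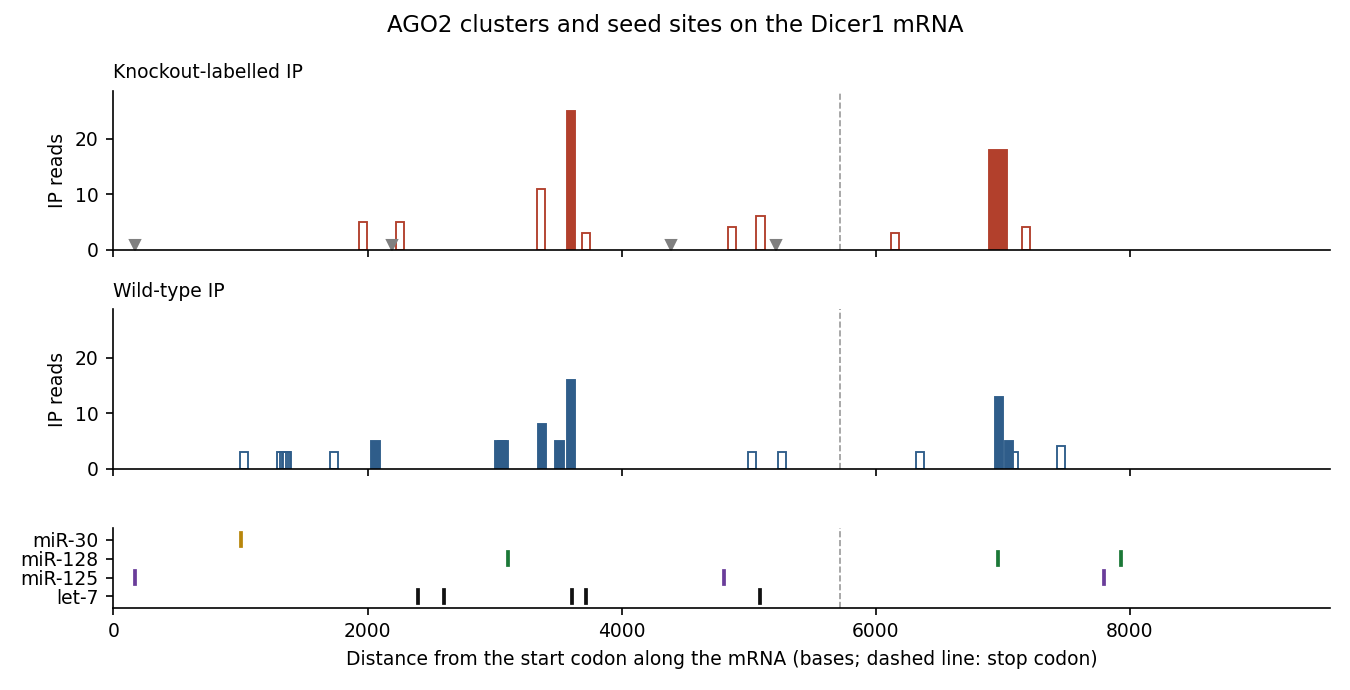
IP reads of each cluster along the Dicer1 mRNA (horizontal axis, bases from the start codon, with the stop codon dashed), in the knockout-labelled IP (top) and the wild-type IP (middle), with seed sites of 4 miRNA families below. Filled bars are enriched peaks, open bars are not, and grey triangles are clusters below input, for which no reads could be recovered. The tallest bars, 25 knockout-labelled and 16 wild-type reads, stand on a let-7 site, and the 3′ UTR bars of 18 knockout-labelled and 13 wild-type reads on a miR-128 site.

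The second peak of Dicer1 was in the 3′ UTR. The knockout-labelled peak spanned 104690286 to 104690426 with 18 IP against 2 input reads (log2 4.11, interval 2.05 to 7.26, -log10 p 6.43). The wild-type peak spanned 104690320 to 104690365 with 13 against 1 (log2 6.36, interval 3.63 to 11.8, -log10 p 10.2). Both held a miR-128 site of 8 bases that starts 1237 bases past the stop codon, given here because it lay under both peaks. In a wider search, described for Lin28b, a miR-301a-3p site was also found at both, so the reads cannot be given to one miRNA.
Dicer1 3′ UTR miR-128 site, chr12:104690338-104690367, minus strand: ttaattttttgCACTGTGActataatacct

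Another coding site was shared. The knockout-labelled cluster at 104703038 to 104703080 held 11 IP against 4 input reads (log2 2.40, interval 0.64 to 4.51, -log10 p 2.38), which misses both limits. The wild-type cluster at 104703028 to 104703073 held 8 against 2 (log2 4.66, interval 2.34 to 7.94, -log10 p 5.38) and was enriched. Neither held a site of the 8 families. The other 6 enriched peaks of Dicer1 overlapped no knockout-labelled cluster and rested on 5 wild-type IP reads each. They were at 104690241 to 104690285 in the 3′ UTR, where the knockout-labelled peak abuts, and, in the coding sequence, at 104702898 to 104702925, 104704226 to 104704242, 104704719 to 104704728, 104704729 to 104704764 and 104709784 to 104709831. At 5 IP reads no cluster could have passed in the knockout-labelled pair.

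Coding clusters that were not enriched also covered sites. The knockout-labelled cluster at 104731087 to 104731168, below its input (log2 -0.06), held miR-125 and miR-9 sites of 8 bases in codons 57 and 68. The wild-type cluster at 104722277 to 104722307, with 3 IP reads against 1 input read, had a miR-30 site of 8 bases at codon 336.

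The DICER1 partners were nearly free of clusters. Tarbp2 (chr15:102518192-102523676, plus strand) had none in either IP. Prkra (chr2:76629898-76648015, minus strand) had 1 intron cluster in the knockout-labelled IP, at 76635075 to 76635097 (3 IP reads against 1 input read, log2 2.52), and 1 in the 3′ UTR in the wild-type IP, at 76630015 to 76630062 (3 against 1, log2 4.25). Their mRNAs are short, with coding sequences of 1098 and 942 bases and 3′ UTRs of 334 and 513 bases. The level of these mRNAs in the tissue was not measured.

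Lin28b, which encodes the let-7 inhibitor, is on chr10:45376620-45486395 on the minus strand, with a coding sequence of 816 bases and a 3′ UTR of 4445 bases. It had 8 clusters in the knockout-labelled IP (1 coding, 5 in the 3′ UTR, 2 in introns) and 10 in the wild-type IP (2 coding, 6 in the 3′ UTR, 2 in introns). The highest peak in both libraries lay in the 3′ UTR, with its middle 965 and 966 bases past the stop codon in the 2 libraries' longer regions. The knockout-labelled file gives it as the abutting regions 45380086 to 45380092 and 45380093 to 45380106, each with 21 IP reads against 1 input read (log2 5.33, interval 2.70 to 10.7, -log10 p 8.60). The wild-type file gives it as 45380086 to 45380089 and 45380090 to 45380107, each with 14 against 1 (log2 6.47, interval 3.75 to 11.9, -log10 p 11.0003). The peak is 21 bases long in the knockout-labelled IP and 22 in the wild-type IP, and its bases are given because no site of the 8 families lay in it or within 20 bases. A further search with the seeds of the 22 mature miRNAs from the 12 miRNA genes at the largest listed -log10 p in both IPs, added after the data had been seen, found none either. Sites of miR-124 were not sought in either search, because its sequence was missing from the miRNA reference used.
Lin28b 3′ UTR peak, chr10:45380086-45380107, minus strand: cttttgaaccatcacttagatc

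The second Lin28b peak carried the let-7 site 2582 bases past the stop codon. It spanned 45378459 to 45378515 in the knockout-labelled IP, with 11 IP reads against 1 input read (log2 4.40, interval 1.62 to 9.83, -log10 p 4.2003). It spanned 45378439 to 45378512 in the wild-type IP, with 10 against 1 (log2 5.99, interval 3.17 to 11.4, -log10 p 7.67). The let-7 site has 7 bases, without the A. The same peaks also held a miR-30 site of 8 bases and had a miR-15/16 site of 7 bases inside or within 20 bases, so these reads, too, have several candidate miRNAs.
Lin28b 3′ UTR miR-30 site, chr10:45378481-45378510, minus strand: agtgaaaattcTGTTTACAgcacatggcta

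**Figure D4:**
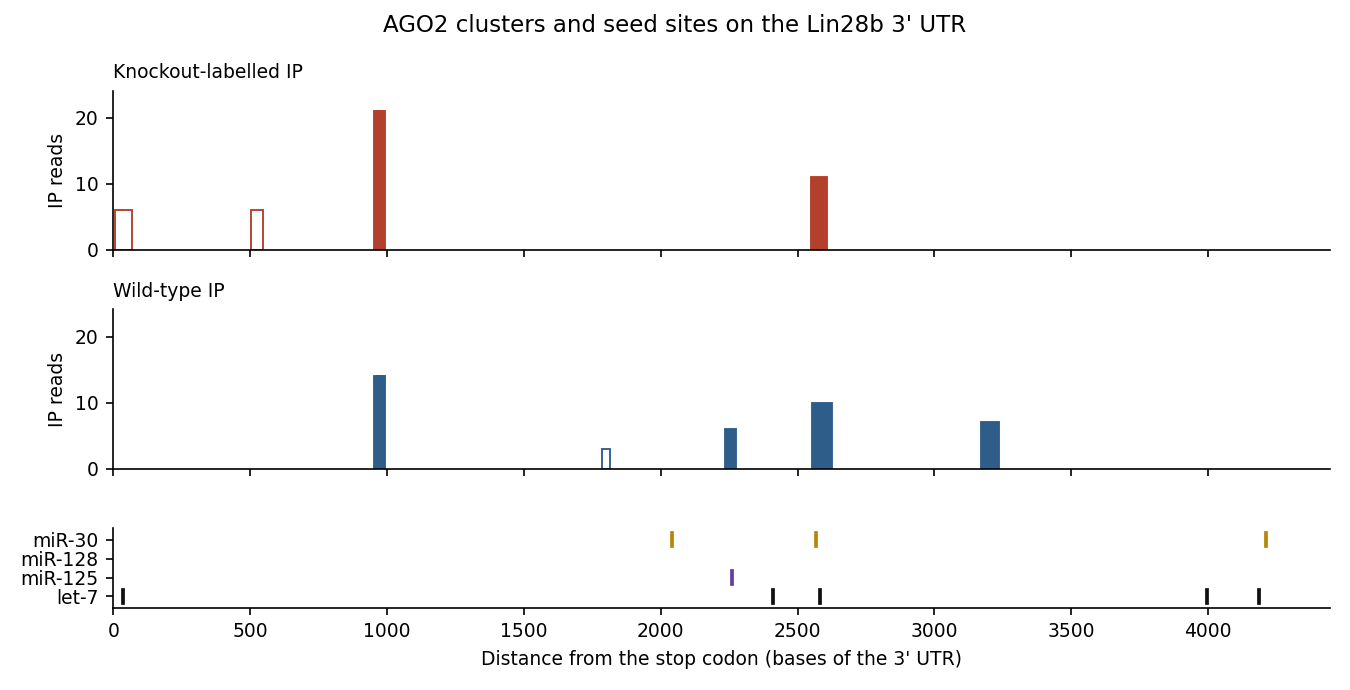
IP reads of each cluster along the Lin28b 3′ UTR (horizontal axis, bases past the stop codon) in the knockout-labelled IP (top) and the wild-type IP (middle), with seed sites of 4 miRNA families below. Filled bars are enriched peaks and open bars are not. The tallest bars, 21 knockout-labelled and 14 wild-type reads, have none of these sites under them, and the bars of 11 knockout-labelled and 10 wild-type reads stand on let-7 and miR-30 sites.

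The remaining clusters of the Lin28b 3′ UTR were called in 1 IP each. The knockout-labelled 45380998 to 45381060 cluster held the let-7 site of 8 bases 36 bases past the stop codon, with 6 IP against 2 input reads (log2 2.52, interval 0.04 to 5.87), and was not enriched. The cluster at 45380519 to 45380561 held a miR-9 site of 7 bases, with 6 against 1 (log2 3.52, -log10 p 2.10). The enriched wild-type peak at 45378792 to 45378831 had 6 IP reads against 1 input read (log2 5.25, interval 2.21 to 10.8, -log10 p 4.40) and a miR-125 site of 8 bases. The enriched peak at 45377830 to 45377895 held 7 against 1 (log2 5.47, interval 2.51 to 10.97, -log10 p 5.21) and no site of the 8 families.
Lin28b 3′ UTR miR-125 site, chr10:45378787-45378816, minus strand: aaagaactttgCTCAGGGAacataccatat

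Lin28b also had sites outside the 3′ UTR. A miR-125 site of 8 bases in codon 198 lay at the abutting wild-type coding clusters from 45381254 to 45381313, with 3 and 4 IP reads against 1 input read each, and neither was enriched. The knockout-labelled IP had an enriched peak in an intron, at 45461634 to 45461701, with 11 IP against 2 input reads (log2 3.40, interval 1.20 to 6.61, -log10 p 3.55). The nearest wild-type cluster lay 44927 bases away.

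Dis3l2, which encodes the nuclease that degrades uridine-marked let-7 precursors, is on chr1:86703808-87050095 on the plus strand. It had 10 clusters in the knockout-labelled IP, 7 of them in introns, and 5 in the wild-type IP, 4 of them in introns, and none was enriched. Its highest score was that of the wild-type intron cluster at 86822152 to 86822171, with 4 IP reads against 1 input read (log2 4.66, -log10 p 2.81). No knockout-labelled cluster there held more than 5 reads. The abutting intron clusters there from 87037472 to 87037521 also lie in another annotated gene, Gm37447.

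Trim71 and Igf2bp1 carry most of the let-7 sites outside Lin28b and Dicer1, and their clusters lay elsewhere. Trim71 (chr9:114507133-114564369, minus strand), a ubiquitin ligase and RNA-binding protein gene, holds 6 let-7 sites in its 3′ UTR of 5512 bases. It had 2 abutting 3′ UTR clusters in the knockout-labelled IP, from 114511466 to 114511488 (3 IP reads against 1 input read, log2 2.52), and 2 in the wild-type IP, from 114511570 to 114511605 (4 against 1, log2 4.66, -log10 p 2.81). The libraries' clusters lay 82 bases apart, and none had a let-7 site within 20 bases. A miR-125 site of 7 bases lay within 20 bases of the wild-type one.

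Igf2bp1 (chr11:95957163-96005940, minus strand), which encodes an mRNA-binding protein of growing cells, holds 5 let-7 sites in its 3′ UTR of 6337 bases. Its clusters numbered 3 in the knockout-labelled IP and 2 in the wild-type IP. The knockout-labelled cluster in the 3′ UTR, from 95959508 to 95959574, had 6 IP reads against 1 input read (log2 3.52, interval 0.48 to 9.05, -log10 p 2.10) and held a site of 7 bases for the miR-17 family. The abutting wild-type 3′ UTR clusters from 95958192 to 95958227 held 3 against 1 (log2 4.25). None had a let-7 site within 20 bases.

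Most seed sites in these mRNAs had no cluster. The sites searched were CTACCTC for let-7, CTCAGGG for miR-125, CACTGTG for miR-128, TGTTTAC for miR-30, ACCAAAG for miR-9, TGCTGCT for miR-15/16, TACTTGA for miR-26 and GCACTTT for miR-17, or the last 6 of these bases followed by A. They were read on the transcript strand only. Of 17 let-7 sites in the 3′ UTRs of 4 members (6 on Trim71, 5 on Lin28b, 5 on Igf2bp1 and 1 on Tarbp2), 2 lay within 20 bases of a cluster in the knockout-labelled IP and 1 in the wild-type IP, all on Lin28b. Of 8 miR-125 sites, none did in the knockout-labelled IP and 2 in the wild-type IP. Of 10 miR-9 sites, 1 did in the knockout-labelled IP and none in the wild-type IP, and of 7 miR-26 sites none did in either. In each IP it was 1 of 6 miR-30 sites, 1 of 4 miR-15/16 sites and 1 of 3 miR-128 sites. Of 3 miR-17 sites 1 lay at a knockout-labelled cluster and none at a wild-type one.

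Counted the other way, by clusters that have a site, a let-7 site lay at 2 of 11 knockout-labelled 3′ UTR clusters of these genes, against 3.99% of all 3′ UTR clusters, and at 1 of 16 in the wild-type IP, against 4.12% of all. In coding sequence it lay at 3 of 34 knockout-labelled clusters, against 2.71% of all, and at 3 of 31 wild-type clusters, against 3.88% of all. The coding clusters with a let-7 site were all on Dicer1 in the knockout-labelled IP, and on Dicer1 (1) and Xpo5 (2, abutting) in the wild-type IP. Among all enriched peaks, a let-7 site lay at 11.4% of those in 3′ UTRs and 84 of 525 coding ones in the knockout-labelled IP, and at 5.83% of those in 3′ UTRs and 7.66% of coding ones in the wild-type IP. Over the 8 families, the share of all 3′ UTR clusters with a site was between 1.70% and 3.99% in the knockout-labelled IP and between 1.85% and 4.12% in the wild-type IP. In coding clusters it was between 0.640% and 3.34% in the knockout-labelled IP and between 0.779% and 4.29% in the wild-type IP. A match is a description of the sequence and does not show which miRNA was bound.

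Overlap between the libraries' clusters was low over all clusters and on these genes. Of the 68 knockout-labelled clusters 7 overlapped a wild-type cluster by at least 1 base (10.3%, interval 4.24 to 20.1), against 13.4% of all clusters of that IP. Of the 61 wild-type clusters 7 overlapped a knockout-labelled one (11.5%, interval 4.74 to 22.2), against 25.9% of all. The shared sites were 3 on Dicer1, 2 on Lin28b (of which 1 is cut into abutting regions) and 1 on Dgcr8. In the knockout-labelled IP 14 of 68 clusters lay below input (20.6%, interval 11.7 to 32.1), against 10.4% of all, and 11 of the 14 were on Drosha and Dicer1. Of the 61 wild-type clusters 0 did, which allows a share of up to 5.87% (upper bound of the interval), against 1.75% of all.

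Wild type is the numerator of the log2 in the authors' deposited table, so a positive log2 means lower in the knockout-labelled IP. In the authors' deposited table, 0 of 61 member regions reached a -log10 p of 3 with a log2 of 1 or more, against 3.39% of all its regions. None of the 61 had a log2 below 0, against 2915 of all its 46862 regions. Their log2 was between 0.45 and 3.995, and the highest -log10 p was 2.84. Nearly all regions of that table are the clusters called in the wild-type IP, so regions with reads in the knockout-labelled IP alone are not in it. Reads were few: 36 of the 61 regions listed 1 knockout-labelled read, the lowest count. Of the 61, 25 listed 1 knockout-labelled against 3 wild-type reads, which alone gives a log2 of 2.77. Regions inside knockout-labelled clusters listed more knockout-labelled reads than those clusters did: 26 against 25 on Dicer1 and 22 against 21 on Lin28b. Knockout-labelled counts of this comparison may therefore each include an added read, and a count of 1 may stand for 0 reads. Log2 values and intervals take the counts as listed. Against 1 knockout-labelled read, 8 wild-type reads are needed for a -log10 p of 3.

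At 5 sites with at least 20 reads, counted as listed, the ratio of the IPs was known best. In the authors' deposited table, the Dicer1 coding peak with the let-7 site had 26 knockout-labelled and 16 wild-type reads (log2 0.49, interval -0.51 to 1.44). The Dicer1 3′ UTR peak with the miR-128 site had 14 knockout-labelled and 13 wild-type reads (log2 1.08, interval -0.13 to 2.28), and the other shared coding site had 12 knockout-labelled and 8 wild-type reads (log2 0.60, interval -0.89 to 2.01), in the authors' deposited table. On Lin28b the highest peak had 22 knockout-labelled and 14 wild-type reads (log2 0.54, interval -0.54 to 1.57) and the peak with the let-7 site 12 knockout-labelled and 10 wild-type reads (log2 0.93, interval -0.44 to 2.26), per the authors' deposited table. All 5 intervals include 0, and they also include a change of 1 on the log2 scale.

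Larger values stood on fewer reads. In the authors' deposited table, the Lin28b 3′ UTR region at 45377830 to 45377895 had 1 knockout-labelled and 7 wild-type reads (log2 3.995, interval 1.03 to 9.49, -log10 p 2.84), the highest score among these genes. Its knockout-labelled count is the lowest listed and may stand for no read. The Lin28b peak with the miR-125 site had 3 knockout-labelled and 6 wild-type reads (log2 2.19, interval -0.04 to 4.82), and the Dgcr8 regions on miR-1306-5p had 2 knockout-labelled and 4 wild-type reads (log2 2.19, interval -0.61 to 5.65), in the authors' deposited table.

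**Figure D5:**
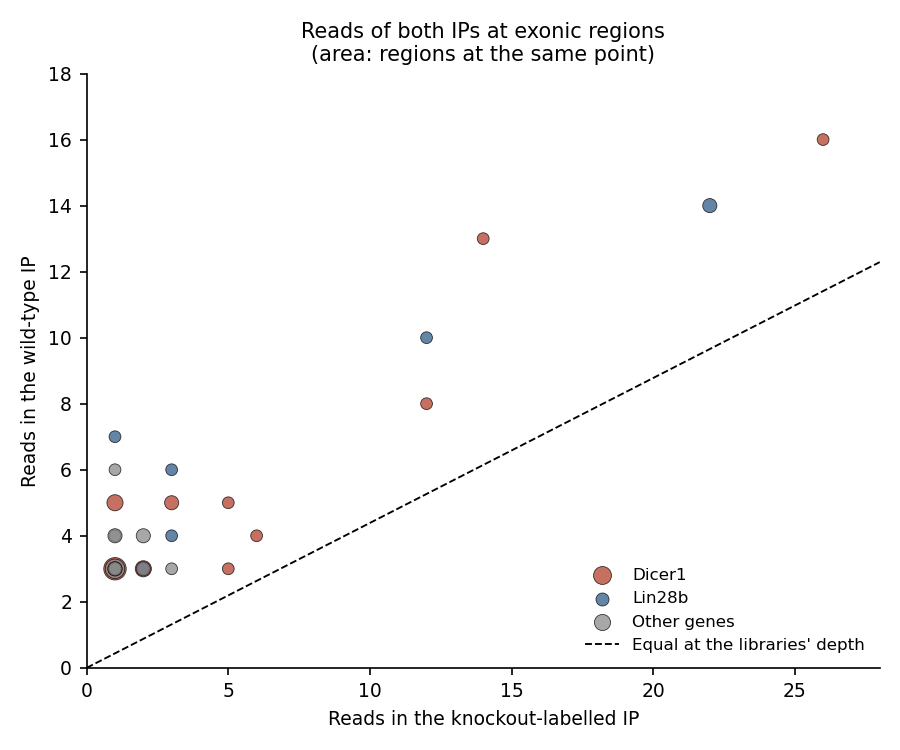
Reads in the knockout-labelled IP (horizontal axis) and the wild-type IP (vertical axis) at each exonic region of the authors' deposited table on these genes, with Dicer1 in red, Lin28b in blue and other genes in grey. Knockout-labelled counts are as listed and may each include an added read. The area of a point grows with the number of regions at the same reads, and the dashed line marks equal density at the depth ratio of 2.28. Nearly all regions of that table were called in the wild-type IP. All points lie above the line, and the 6 regions with at least 20 reads of both IPs lie at a log2 of 0.49 to 1.08.

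Summed reads per gene depend on which library's clusters are summed. Over the regions of the authors' deposited table, nearly all called in the wild-type IP, a lean to wild type is built in, and these sums show no change of a gene. The 48 exonic regions listed 181 knockout-labelled and 230 wild-type reads (log2 of wild type over knockout-labelled 1.53, interval 1.25 to 1.82). Over the 6715 protein-coding genes with an exonic region the sum gave a log2 of 1.09. All knockout-labelled sums over these regions may include an added read per region, and the intervals treat it as observed. Dicer1 held 90 knockout-labelled and 104 wild-type reads in regions of the authors' deposited table (log2 1.40, interval 0.98 to 1.82), and Lin28b held 66 knockout-labelled and 61 wild-type reads (log2 1.07, interval 0.548 to 1.599). The other genes held between 1 and 7 knockout-labelled and between 3 and 19 wild-type reads in these regions. Summed instead over each library's own exonic clusters, Drosha held 68 reads in 10 knockout-labelled clusters (6 more, below input, gave no reads) and 19 in 6 wild-type clusters. Its 6 wild-type-called regions each listed 1 knockout-labelled read, the lowest count, which may be an added one. Igf2bp1 held 13 knockout-labelled and 6 wild-type reads in its own clusters. Its 2 wild-type-called regions likewise listed 1 knockout-labelled read each. Over all members, own clusters held 267 reads in the knockout-labelled IP (39 clusters with reads, 12 without) and 230 in the wild-type IP (48 clusters), before any scaling by the depth ratio of 2.28. Abutting regions that share reads are counted separately here, and the intervals treat them as independent. The median of the 9 genes' median log2 was 2.77 (SD over genes 0.65), the same as the median over all regions of the authors' deposited table (2.77) and beside 2.19 over all protein-coding genes (quartiles 1.19 and 2.77). These medians rest on the same choice of regions, which does not fix their sign, since 2915 of 46862 regions had a log2 below 0. How far that choice raises the medians was not tested, and nothing is read from them about these genes. The median over the 3123 regions with at least 20 reads outside miRNA genes was 0.38.

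Among 41 other genes of miRNA biogenesis, let-7 control and silencing, 37 had a cluster in the knockout-labelled IP and 31 in the wild-type IP. Enriched peaks were 25 of 503 clusters in the knockout-labelled IP (4.97%, against 3.08% of all its clusters), on 8 genes, and 87 of 292 in the wild-type IP (29.8%, against 24.1% of all), on 19 genes. Enriched peaks in both IPs were found on 7 genes. The genes with the most were Tnrc6c (5 in the knockout-labelled and 23 in the wild-type IP), Tnrc6a (8 knockout-labelled, 16 wild-type) and Tnrc6b (6 knockout-labelled, 14 wild-type), which encode the scaffold proteins that join Argonaute to the deadenylases, followed by Khsrp (2 knockout-labelled, 4 wild-type), an RNA-binding protein of let-7 precursor processing. Ago1, Ddx17, Pum2 and Syncrip tied, each with 0 in the knockout-labelled IP and 4 in the wild-type IP. In the authors' deposited table, 19 of 292 regions of this list, on 7 genes, were higher in wild type past the limits, against 3.39% of all its regions. Nearly all its regions are wild-type-called clusters. The 19 include abutting regions on Khsrp, Hnrnpa2b1, Ago1 and Tnrc6c, which are counted separately, so the sites are fewer. The largest values in the authors' deposited table were on Khsrp (log2 4.77, 1 knockout-labelled against 12 wild-type reads), Ago1 (4.51, 1 against 10), Ago2 (4.36, 1 against 9) and Tnrc6a (4.19, 1 against 8). Each rests on a knockout-labelled count of 1, which may stand for 0 reads. Lin28a, the paralogue of Lin28b, Hmga2, a known let-7 target, and Ago4 had no cluster in either IP.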

How the data were processed

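Cutadapt 1.15 trimmed the adapters, per the labels' protocols; repeat reads were removed, the remainder aligned by STAR 2.6.0c to mm10, duplicates removed by molecular identifiers and clusters called in each IP with CLIPper. Each deposited file lists a -log10 p by the authors for every cluster, never above 400. Beside it stands the authors' log2 of IP over size-matched input. A deposited series table gives the same scores between the IPs. How it was made is not given in the sources used here. Of its 46862 regions, 46799 are exactly wild-type clusters, and wild type was therefore read as the numerator.

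Reads were recovered from the scores: 99.97% of log2 values in each IP file, and 99.96% in the comparison, equalled log2 of a whole-number ratio (denominators up to 1000) plus a constant. Reads were those whose binomial or Yates-corrected chi-square p came closest to the deposited one, within 1%. Any read added to a count before scoring is part of the recovered count. Wild-type reads from both tables were equal in 42615 of 42615 regions. Clusters listed at a -log10 p of 0 or 400 gave no reads, except where another table supplied them.

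Regions took the annotation at their midpoint on their strand, coding sequence first, then 3′ UTR, then 5′ UTR, other exons and introns. Seed sites were sought in each cluster and 20 bases on each side, in 8 miRNA families (miR-124 was not searched). The members and gene lists were chosen with earlier results of these data known. Clusters were described in full where enriched, with at least 10 IP reads or at a miRNA gene, otherwise the member's highest score, and clusters with sites were added after values were seen. Of the pathway list, 6 genes with the most enriched peaks (ties by symbol, with Pum2 and Syncrip added as tied) and those with the largest log2 past the limits were named. Alternatives covered limits, overlap, centring, annotation order and site definition. Scripts used Python 3.11.15, numpy 2.4.6, pandas 2.3.3, scipy 1.17.1 and pysam 0.24.0.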

Additional observations from a re-analysis of the deposited data

How the results depend on the processing

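The count of enriched peaks on these genes depended on the limits in wild type. With stricter limits (a -log10 p of 5 and a log2 of 4) it was 4 in the knockout-labelled IP (6 as reported) and 7 in the wild-type IP (15 as reported). With at least 9 IP reads, added after the data had been seen, it was 6 in the knockout-labelled IP and 5 in the wild-type IP. In the comparison of the IPs no member region passed under any of the 4 alternatives run. The median gene log2 of 2.77 was 0 after centring on all regions and 0.57 over regions with at least 10 reads. The summed log2 of 1.53 was 1.15 after centring on regions with at least 20 reads. Leaving out each gene in turn gave 1.46 to 1.74. Clusters in 3′ UTRs with a let-7 site numbered 1 in the knockout-labelled IP with sites of 8 bases (2 as reported). In the wild-type IP they numbered 0 with sites of 8 bases and 2 with 50 bases on each side (1 as reported). Each of these values rests on few reads or sites, since the median member region held 5 reads of both IPs together, and the cause of the shifts was not tested beyond the construction of each setting. No paired analysis was possible because each genotype had 1 IP library.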
